A study of Mus musculus with 12 samples.

Results

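This account describes 10 genes that mark Kupffer cells, the resident macrophages of the liver, and macrophages in general, in RNA sequencing libraries made from mouse hepatocytes. The genes were Clec4f, Vsig4, Timd4, Cd5l, Marco, Adgre1, C1qa, C1qb, C1qc and Csf1r, chosen by name as 10 of the 52636 genes in the deposited table. Hepatocytes came from steatotic livers of 3 wild-type (WT) mice and 3 mice in which Ptprk was knocked out (KO). Ptprk encodes a receptor-type protein tyrosine phosphatase (kappa). By the protocol in the labels, a Percoll gradient and differential centrifugation separated viable hepatocytes by lipid content and from dead hepatocytes and non-parenchymal cells, the class that Kupffer cells belong to. Each mouse gave 1 low-fat and 1 high-fat library, so the 12 libraries form 4 groups of 3, low-fat and high-fat for each genotype. Mice are numbered here by replicate within a genotype, which differs from the mouse names in the labels. The labels used here name no strain, age, sex, diet or knockout allele, and no Cre driver. All 4 groups share the steatotic liver and the hepatocyte isolation.

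Kupffer cells sit on the inner face of the liver sinusoids, where they take up particles, bacteria, dying cells and old red blood cells from the blood. They depend on signals through the receptor of colony-stimulating factor 1, and their identity is kept by signals from neighbouring sinusoidal endothelial cells, stellate cells and hepatocytes. Transcription factors of the ETS family (PU.1) and the MAF family act at many macrophage genes. In a fatty liver, resident Kupffer cells can be lost and partly replaced by cells derived from blood monocytes.

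Values are reads per 20 M (mega), as the authors scaled them. Estimated depth was between 15.08 and 25.02 M reads a library. The 10 hepatocyte markers summed to between 573036 and 667268 reads per 20 M in every library, while the 10 macrophage markers summed to between 501 and 12301. Ptprk stood at 2724 to 2883 in WT low-fat, 2174 to 2578 in WT high-fat, 1117 to 1364 in KO low-fat and 1179 to 1217 in KO high-fat libraries, so every KO library lay below every WT library while keeping Ptprk reads. The high-fat libraries of replicate 1 stood apart in both genotypes: their summed macrophage markers were 4.91 times (WT) and 4.46 times (KO) the mean of replicates 2 and 3. In the same libraries the summed liver sinusoidal endothelial markers were 2.24 and 1.89 times that mean. The stellate cell markers were 1.64 and 1.07 times that mean, and the hepatocyte markers 1.06 and 0.94 times. Neutrophil markers were 5.08 and 3.82 times that mean, at low sums of 122 and 63. Lymphocyte markers were 4.93 and 2.33 times, at sums of 69 and 35, and dendritic cell markers 1.88 and 1.76 times. The excess in these libraries was therefore not particular to the macrophage markers, and its cause was not tested. The nuclear-retained RNAs, which include Malat1, were 2.22 and 4.71 times that mean, at sums of 154343 and 152812. Replicate 2 was also high in WT low-fat (103789), WT high-fat (104693) and KO low-fat (124202), but not in KO high-fat (32028). Because the macrophage markers of replicate 1 stood apart, the members' fold changes over both genotypes and the counts of each list are given with and without its 2 mice.

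Promoter sequences of members that change together are shown because the factors named above bind short sequence elements. RefSeq (GRCm38.p6) gave a promoter window for 7 of the 10 members, and the 250 bases before the start were searched on both strands. The PU.1 core GAGGAAG was present in 3 of the 7 windows (Marco, Cd5l and C1qc), against 10.6% of 32851 such windows of the table. The MAF element TGCTGAC was present in 1 of 7 (Timd4), against 3.81%. No window below holds both motifs. The windows run 5′ to 3′ on the gene's strand, with matches in capitals, a match on the opposite strand appearing as its reverse complement. Marco lies at chr1:120505025-120505274 on the minus strand and holds GAGGAAG on its own strand. Cd5l lies at chr3:87357631-87357880 on the plus strand and C1qc at chr4:136893066-136893164 on the minus strand, both with the PU.1 core on the opposite strand. The C1qc sequence is the 99 bases of its window that precede the gene in GENCODE M21. Timd4 lies at chr11:46810549-46810798 on the plus strand, with the MAF element on the opposite strand. A match describes the letters only and shows no binding.
Marco: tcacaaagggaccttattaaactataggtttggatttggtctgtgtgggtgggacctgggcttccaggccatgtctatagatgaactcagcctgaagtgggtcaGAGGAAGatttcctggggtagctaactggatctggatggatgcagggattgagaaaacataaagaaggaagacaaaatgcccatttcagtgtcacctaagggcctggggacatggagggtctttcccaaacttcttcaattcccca
Cd5l: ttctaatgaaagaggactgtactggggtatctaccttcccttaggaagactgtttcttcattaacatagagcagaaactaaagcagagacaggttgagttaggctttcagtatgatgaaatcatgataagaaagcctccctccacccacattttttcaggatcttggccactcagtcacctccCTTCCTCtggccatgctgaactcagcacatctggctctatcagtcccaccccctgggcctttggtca
C1qc: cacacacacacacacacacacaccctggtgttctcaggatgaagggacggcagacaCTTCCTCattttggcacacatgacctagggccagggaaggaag
Timd4: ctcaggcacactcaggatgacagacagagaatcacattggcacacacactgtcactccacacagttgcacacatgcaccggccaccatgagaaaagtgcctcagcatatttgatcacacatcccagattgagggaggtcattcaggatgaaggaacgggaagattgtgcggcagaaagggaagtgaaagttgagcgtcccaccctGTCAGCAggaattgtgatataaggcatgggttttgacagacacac

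The first comparison asked how the markers differ between the lipid-rich and lipid-poor hepatocyte fractions. Every member was higher in the high-fat than in the low-fat library of each of the 6 mice, and for every member all 6 high-fat libraries lay above all 6 low-fat libraries. Over the 16563 genes tested, 9.74% were higher in 6 of 6 mice and 4.37% showed this lack of overlap. Averaged over both genotypes, 9 of the 10 members passed the limma test (adjusted p under 0.05, adjusted over all genes tested), all upward, against 4.99% of all genes tested. Marco, 1 of the 9, passed the filter on low values only through the high-fat libraries, so its call is no support; 8 of the other 9 members passed the test. The median log2 fold change of the members was 2.26, against -0.04 over all genes tested. With a term for each mouse, all 10 passed, against 6.65% of all genes tested. In these bulk libraries, more macrophages and more of these transcripts per macrophage cannot be told apart.

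**Figure D1:**
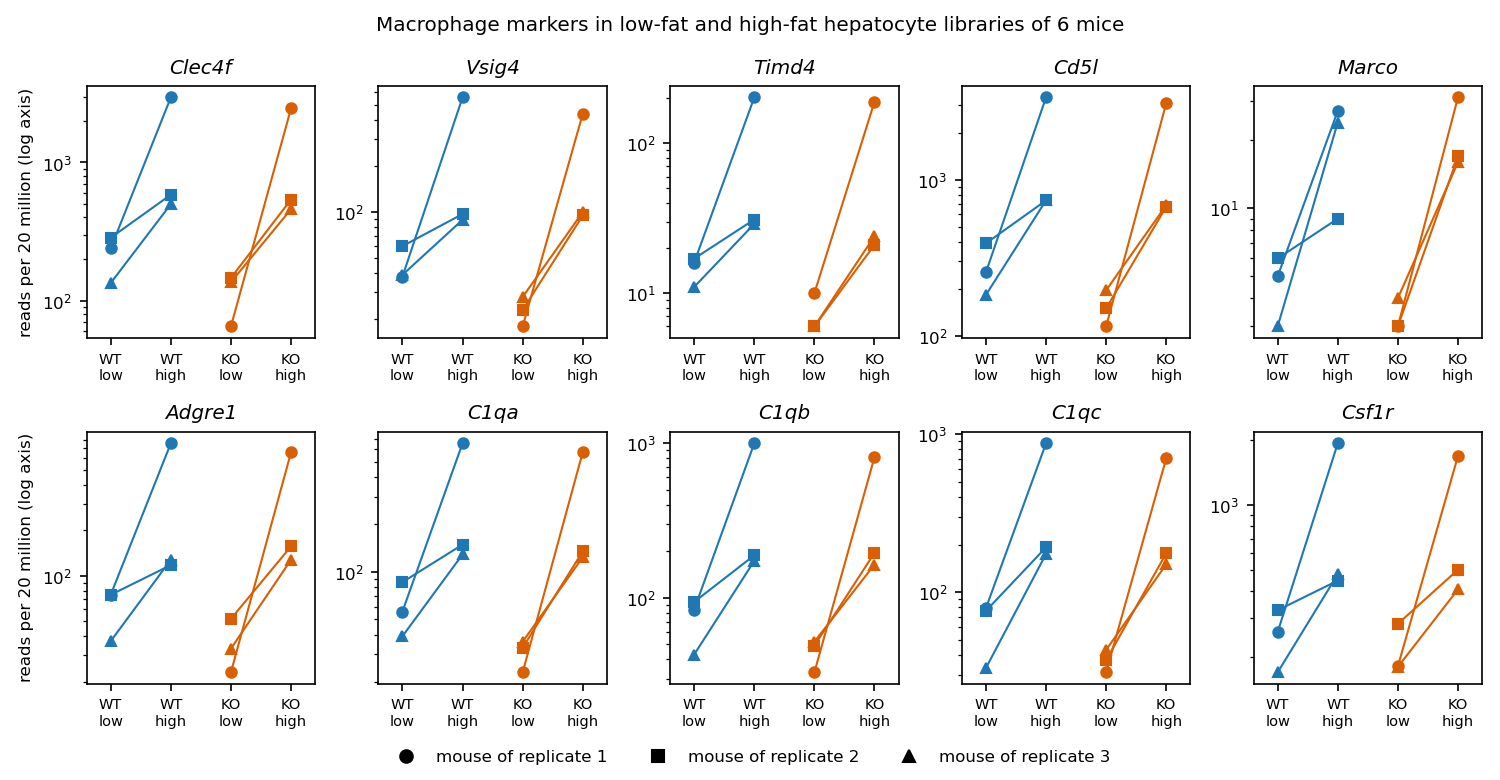
Each panel plots 1 gene, with reads per 20 M on a log axis against genotype and fraction; a point is 1 library and a line joins the libraries of 1 mouse. All lines slope upward, and the high-fat libraries of replicate 1 (circles) are the highest points of every panel, in Clec4f at 2955 in WT and 2458 in KO.

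Among receptors typical of resident Kupffer cells, Clec4f encodes a C-type lectin that in mouse liver is largely restricted to these cells. Clec4f stood at 239, 285 and 134 in WT low-fat replicates 1 to 3 and at 2955, 584 and 499 in the high-fat libraries of the same mice. In KO mice it stood at 65, 146 and 136 in low-fat and 2458, 539 and 459 in high-fat libraries. The lowest high-fat library (459) was above the highest low-fat library (285), and replicate 1 was far above the others in both genotypes. The group means were 219.3 ± 77.4 and 1346 ± 1390 in WT and 115.7 ± 44.2 and 1152 ± 1130 in KO (low-fat and high-fat, SD, n = 3 each). Over both genotypes Clec4f rose by 2.48 on the log2 scale (SE 0.49, limma adjusted p = 0.0123).

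Vsig4 encodes a receptor of the immunoglobulin superfamily that binds fragments of complement C3. Its levels were 38, 60 and 39 in WT low-fat and 557, 97 and 89 in WT high-fat libraries. The KO libraries held 18, 23 and 28 in low-fat and 436, 95 and 100 in high-fat. The fractions did not overlap, and the KO low-fat libraries all lay below the WT low-fat ones. Vsig4 rose by 2.23 on the log2 scale (SE 0.46, limma adjusted p = 0.0158).

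Timd4 encodes a receptor for phosphatidylserine on dying cells and marks long-lived resident macrophages. It was sparse in low-fat libraries, at 16, 17 and 11 in WT and 10, 6 and 6 in KO. The high-fat libraries held 202, 31 and 29 in WT and 189, 21 and 24 in KO, with both replicate 1 libraries far above the rest. Timd4 was the member that did not pass the test, with 2.06 on the log2 scale (SE 0.56, limma adjusted p = 0.0566). With a term for each mouse its limma adjusted p was 0.0162.

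Marco, a class A scavenger receptor for bacteria and particles, was the least abundant member. It stood at 5, 6 and 3 in WT low-fat and 3, 3 and 4 in KO low-fat libraries, close to the 2.398 to 3.978 that 3 reads are worth in a library. High-fat levels were 27, 9 and 24 in WT and 31, 17 and 16 in KO. Marco was also the member whose replicate 1 high-fat library stood out least, at 1.64 times (WT) and 1.88 times (KO) the mean of replicates 2 and 3, against 3.69 to 8.4 times for the other 9 members. It rose by 1.80 on the log2 scale (SE 0.29, limma adjusted p = 0.0050), and passed the filter on low values only through the high-fat libraries.

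Cd5l encodes a protein secreted by tissue macrophages that circulates in blood, also known as apoptosis inhibitor of macrophages. Its levels were 255, 391 and 183 in WT low-fat and 3356, 736 and 737 in WT high-fat libraries. In KO they were 115, 150 and 196 in low-fat and 3079, 671 and 686 in high-fat libraries. Apart from replicate 1 the 4 high-fat libraries lay within 671 to 737, while the low-fat libraries ran from 115 to 391. Cd5l rose by 2.47 on the log2 scale (SE 0.44, limma adjusted p = 0.00767).

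C1qa, C1qb and C1qc encode the 3 chains of C1q, the recognition subunit of the classical complement pathway, which macrophages make themselves. Their genes lie side by side on the minus strand of chromosome 4 (GRCm38, GENCODE M21), C1qb from 136880129 to 136886187, C1qc from 136889804 to 136893065 and C1qa from 136895917 to 136898803, within 18675 bases. C1qa stood at 56, 86 and 39 in WT low-fat, 655, 149 and 129 in WT high-fat, 23, 33 and 36 in KO low-fat and 576, 135 and 124 in KO high-fat libraries. C1qb stood at 84, 94 and 43, then 993, 188 and 173, in WT, and at 33, 49 and 52, then 810, 195 and 164, in KO (low-fat, then high-fat). C1qc stood at 79, 76 and 33, then 875, 192 and 174, in WT, and at 31, 37 and 43, then 703, 176 and 150, in KO. All 3 chains were therefore ordered alike over the fractions, with no low-fat library reaching the lowest high-fat one. The log2 fold changes were 2.29 for C1qa (SE 0.44, limma adjusted p = 0.0109), 2.36 for C1qb (SE 0.47, limma adjusted p = 0.0125) and 2.50 for C1qc (SE 0.45, limma adjusted p = 0.00794). Within a library C1qc reads, not divided by length, were 1.21 to 1.35 times those of C1qa in high-fat and 0.846 to 1.41 times in low-fat libraries.

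Adgre1 encodes F4/80, the adhesion receptor by which mouse macrophages are commonly stained. It stood at 75, 75 and 37 in WT low-fat, 755, 118 and 128 in WT high-fat, 23, 52 and 33 in KO low-fat and 658, 157 and 128 in KO high-fat libraries. The 4 high-fat libraries of replicates 2 and 3 were at 118 to 157, above all low-fat libraries. Adgre1 rose by 2.24 on the log2 scale (SE 0.49, limma adjusted p = 0.0208).

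Csf1r encodes the receptor for CSF1 and interleukin 34, on which macrophage survival depends. Its levels were 259, 327 and 169 in WT low-fat, 1926, 448 and 479 in WT high-fat, 180, 283 and 179 in KO low-fat and 1682, 503 and 408 in KO high-fat libraries. It had the smallest fold change of the members, 1.60 on the log2 scale (SE 0.39, limma adjusted p = 0.0352), and the smallest rise of the 10 in 3 of the 6 mice. Within a library Csf1r reads, not divided by length, were 1.08 to 2.77 times those of Clec4f in low-fat and 0.652 to 0.96 times in high-fat libraries. Of the pairs of members compared, only this pair had ranges that did not overlap. The ranges of Csf1r to Adgre1 overlapped (3.45 to 7.83 and 2.55 to 3.8). In GENCODE M21 the gene overlaps Mir6983 on its strand and Hmgxb3 on the other, so reads of these genes could be counted together. The other 9 members overlap no annotated gene.

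The size of the rise differed between mice. The median log2 difference of the 10 members was 3.38, 0.78 and 1.71 in WT mice 1 to 3 and 4.28, 1.95 and 1.74 in KO mice 1 to 3, where the median over all genes tested lay between -0.09 and 0.01. Clec4f was 12.4, 2.05 and 3.72 times higher in the high-fat library of WT mice 1 to 3, and 37.8, 3.69 and 3.38 times higher in KO mice 1 to 3. Cd5l was 13.2, 1.88 and 4.03 times higher in WT and 26.8, 4.47 and 3.5 times higher in KO. Csf1r was 7.44, 1.37 and 2.83 times higher in WT and 9.34, 1.78 and 2.28 times higher in KO. The mice of replicate 1 had the largest rise of their genotype for every member except Marco in WT, whose rise was 8 times in mouse 3 and 5.4 times in mouse 1.

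**Figure D2:**
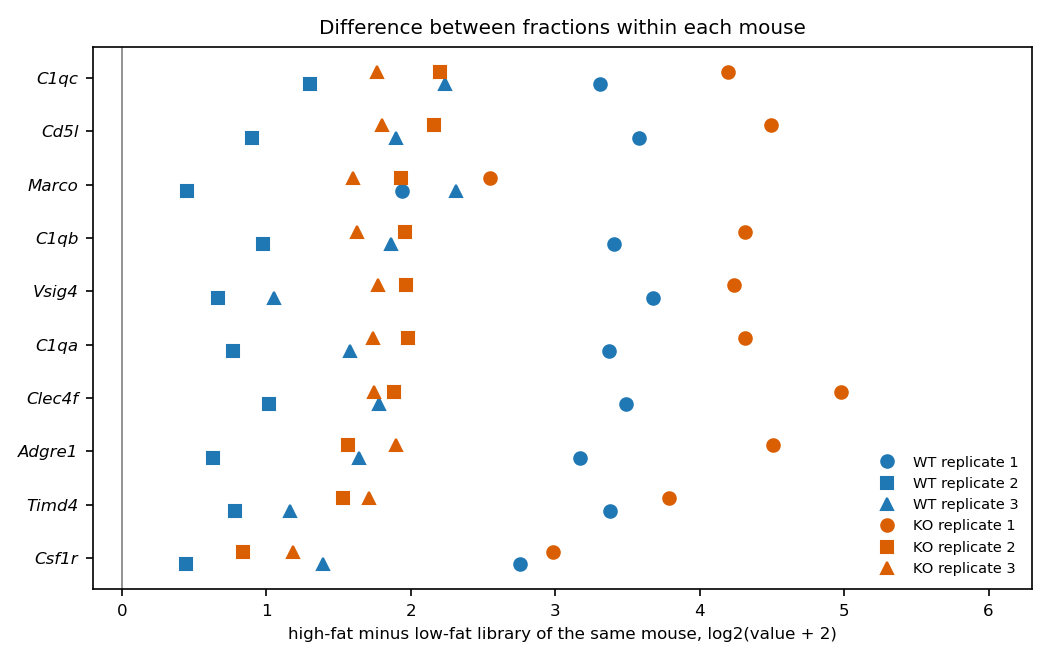
The horizontal axis gives the difference between the high-fat and the low-fat library of 1 mouse, in log2(value + 2), for each member; blue is WT, orange is KO, and the symbol gives the replicate. All points lie right of 0, and the circles of replicate 1 are farthest right for all 10 genes within KO and for 9 of 10 within WT.

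Without the 2 mice of replicate 1, all 10 members still had positive log2 fold changes, between 0.98 (Csf1r) and 1.89 (C1qc), and 9 of 10 passed the test, against 2.24% of the genes tested in that fit. Clec4f then rose by 1.62 (limma adjusted p = 0.00656) and Csf1r by 0.98 (limma adjusted p = 0.0448), while Marco had 1.58 (limma adjusted p = 0.0949). With a term for each mouse as well, all 10 passed, against 5.62%. In these fits Timd4 and Marco passed the filter on low values only through the high-fat libraries, so any call of theirs is no support. Leaving out KO mouse 1 alone lowered the number of members that passed from 9 to 4 (Cd5l, Marco, C1qa and C1qc), against 1.98%. Marco is in both counts and passed the filter only through the high-fat libraries, so its call is no support.

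Split by genotype, the same direction was seen with fewer calls. In WT the log2 fold changes ran from 1.53 to 2.28 and no member passed the limma test, where no gene of the whole table passed either (0%). All 10 members had an unadjusted p under 0.05 there, against 11.5% of all genes tested, and for all 10 the WT high-fat libraries lay above the WT low-fat ones, against 9.1%. In KO they ran from 1.67 to 2.87, and Marco alone passed (2.03, limma adjusted p = 0.0487), against 0.851% of all genes tested, upward calls only. Marco passed the filter through the high-fat libraries, so this call is a description of its values. Leaving out any 1 library or mouse of the KO group left 0 members called there. All 10 had an unadjusted p under 0.05 in KO as well, against 8.95%, and none overlapped between the KO fractions, against 7.72%. With a term for each mouse, Cd5l (limma adjusted p = 0.0466) and C1qc (limma adjusted p = 0.0324) passed in KO, against 1.7%, and Marco did not (limma adjusted p = 0.0606). In WT with that term no member passed, against 0.7%. Without the mice of replicate 1 and with that term, 7 members passed in WT, against 2.49% of the genes tested in that fit, and 9 in KO, against 2.59%. Timd4, among the 9 in KO, passed the filter there only through the high-fat libraries, so its call is no support.

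Genes of the wider macrophage programme were counted by list. Of 28 other Kupffer and tissue macrophage genes, 27 were tested, 16 rose and none fell over both genotypes, with a median log2 fold change of 1.69, and 23 were higher in 6 of 6 mice. Cd163, a receptor for haemoglobin bound to haptoglobin, rose by 2.67 (limma adjusted p = 0.00877). Fcna, a ficolin of the lectin pathway of complement, rose by 2.61 (limma adjusted p = 0.00767), and Axl, a receptor in the uptake of dying cells, by 2.36 (limma adjusted p = 0.00976). Folr2, a folate receptor of resident macrophages, rose by 2.23 (limma adjusted p = 0.0268). Of the 25 genes that passed the filter on low-fat libraries alone, 15 rose. Without the mice of replicate 1 the median was 0.92 and 7 of 27 rose, against 2.24% of the genes tested in that fit. With the term for each mouse as well, 19 rose, against 5.62%. Fcgr1 and Fcgr4, among the 19, reached the filter there only through the high-fat libraries, so their calls are no support. Cd163, Fcna and Axl passed without these mice, and Folr2 had 1.34 (limma adjusted p = 0.0943).

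Of 10 macrophage transcription factors, 3 rose, none fell and 7 did not pass, with a median of 0.81. Zeb2 rose by 1.99 (limma adjusted p = 0.00985), Tfec by 1.76 (limma adjusted p = 0.019) and Maf by 0.62 (limma adjusted p = 0.0227). Tfec reached the filter only through the high-fat libraries, and 2 of the 8 factors that passed it on low-fat libraries alone rose. The median without the mice of replicate 1 was 0.22, and 1 of 9 factors tested rose, Zeb2, by 1.30 (limma adjusted p = 0.0105). Tfec then had 1.32 (limma adjusted p = 0.109) and Maf 0.34 (limma adjusted p = 0.0943). With the term for each mouse as well, 3 rose.

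Of 9 ligands of the CSF1 receptor and signals of the Kupffer cell niche, 4 rose and none fell, with a median of 1.35. Gdf2 and Bmp10, ligands of the bone morphogenetic protein family, each rose by 2.62 (limma adjusted p = 0.00371 and 0.00353). The Notch ligand Dll4 rose by 1.44 (limma adjusted p = 0.0125) and Tgfb1 by 1.35 (limma adjusted p = 0.0343). Il34, a ligand of the CSF1 receptor, had 1.56 (limma adjusted p = 0.0772, and 0.0406 with the term for each mouse). Bmp10 and Il34 reached the filter only through the high-fat libraries, so their calls are no support. Of the 7 genes that passed it on low-fat libraries alone, 3 rose. The median without replicate 1 mice was 0.67 and 2 of 8 rose, Bmp10 by 2.16 (limma adjusted p = 0.0224) and Dll4 by 1.10 (limma adjusted p = 0.0333). Gdf2 then had 2.34 (limma adjusted p = 0.061) and Tgfb1 0.97 (limma adjusted p = 0.163). With the term for each mouse as well, 4 rose.

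Of 12 genes of monocyte-derived and lipid-associated macrophages, 9 were tested and none passed (limma, without or with the term for each mouse). Their median was 0.48, and 3 of the 9 were higher in 6 of 6 mice. Their median without the mice of replicate 1 was 0.36 and none passed, without or with that term. The summed level of these 12 genes was 434 to 706 in low-fat and 476 to 798 in high-fat libraries. Spp1 (64 to 272 over all libraries), also listed as a bile duct marker, and Cd9 (219 to 360) made up much of this sum. Of the 9 tested genes, 4 passed the filter on low-fat libraries alone. Trem2 was below the filter, at 1 to 5 in low-fat and 6 to 21 in high-fat libraries. Ly6c2 (1 to 16 and 0 to 21) and Chil3 (1 to 11 and 0 to 6), also below it, overlapped between fractions. The proteases and regulators that act with C1q, most of which hepatocytes make, had negative values for all 7 genes, with a median of -0.19. None of the 7 passed without the term for each mouse, and C2 passed with it (-0.33, limma adjusted p = 0.0342). None passed without the mice of replicate 1, and the median was -0.11. The C1q chains thus differed in sign from their partners in the same libraries.

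Markers of sinusoidal endothelial and stellate cells moved in the same direction as the macrophage markers. All 10 sinusoidal endothelial markers rose, with a median of 1.78, and their summed level was 1240 to 2990 in low-fat and 5192 to 16656 in high-fat libraries. All 10 stellate cell markers rose, with a median of 2.58, and their sum was 160 to 770 in low-fat and 2372 to 4149 in high-fat libraries. Col1a1 and Des reached the filter only through the high-fat libraries, and the 8 stellate markers that passed it on low-fat libraries alone all rose. Without the mice of replicate 1, all 10 endothelial markers (median 1.40) and 9 of 10 stellate markers (median 2.28) rose. No gene of these 2 lists was at 0 in all libraries. None of the 10 hepatocyte markers passed without the term for each mouse, and Hnf4a passed downward with it (-0.30, limma adjusted p = 0.0418). Their sum was 599687 to 667268 in low-fat and 573036 to 653204 in high-fat libraries. The part of these other cells in the differences of the macrophage markers was not tested. Markers of lymphocytes (2 of 10 tested), neutrophils (1 of 6), dendritic cells (2 of 6), bile duct cells (2 of 6) and erythroid cells (4 of 6) gave no call without the term for each mouse. Averaged over the mice, the tested markers were all negative for lymphocytes (median -0.22), bile duct cells (-0.44) and erythroid cells (-1.28), and positive for neutrophils (0.63) and dendritic cells (1.27). By mouse, the medians ran from -1.58 to 0.89 for lymphocytes, -4.13 to 0.91 for erythroid cells and -2.61 to 3.38 for neutrophils. Medians of bile duct markers were negative and those of dendritic cell markers positive in every mouse. With the term for each mouse Sox9 (-0.61, limma adjusted p = 0.0031), a bile duct marker, and Alas2 (-0.40, limma adjusted p = 0.0139), an erythroid marker, fell and Zbtb46 (0.60, limma adjusted p = 0.0491), a dendritic cell marker, rose. Leaving out the mice of replicate 1, no marker of these lists was called without that term.

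**Figure D3:**
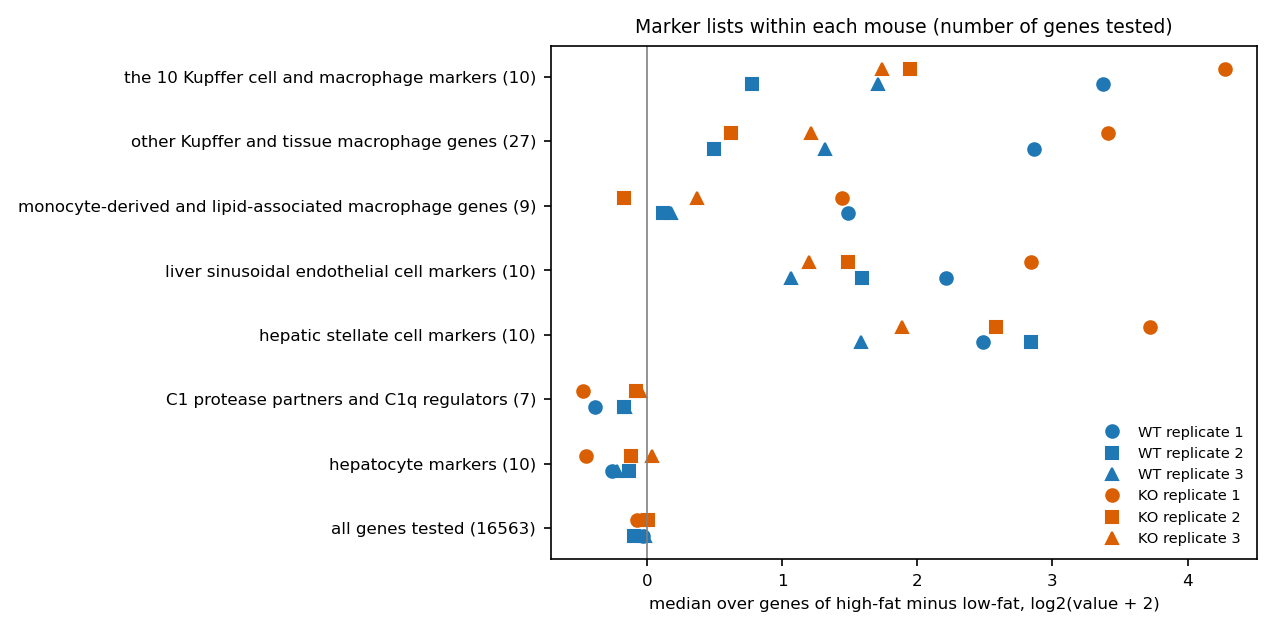
For each list, the horizontal axis gives the median over its genes of the high-fat minus the low-fat library of 1 mouse, in log2(value + 2), with the number of genes tested in brackets; blue is WT, orange is KO. The 10 macrophage markers, the other Kupffer and tissue macrophage genes and the endothelial and stellate lists lie right of 0 in all 6 mice, the monocyte-derived list lies at -0.17 in KO mouse 2, and the median over all genes lies between -0.09 and 0.01.

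Levels can be compared between genes only per length of transcript. Per kilobase of exon, and averaged over the 12 libraries, the order was Cd5l (432.0 reads per 20 M per kilobase), Clec4f (286.6), C1qb (220.4), C1qa (163.5), C1qc (110.9), Csf1r (98.76), Vsig4 (88.72), Adgre1 (57.62), Timd4 (21.55) and Marco (6.407). Cd5l was first, Timd4 was in place 9 and Marco in place 10 in every library. Csf1r moved from place 2 to place 7 over the libraries, so its neighbours in the order were not separated beyond the spread of the libraries. The highest library was between 28.2 and 45.5 times the lowest for 8 of the members, 11.4 times for Csf1r and 10.3 times for Marco.

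The genes whose pattern over the 12 libraries was most like the mean of the members were Sdc3 (r = 0.994), C3ar1 (0.988), Axl (0.987), Fcgr4 (0.987), Epb41l3 (0.985), Pcolce2 (0.985), Siglec1 (0.983), Slc7a8 (0.982), Lilra5 (0.982) and Slc15a3 (0.982). Likeness is Pearson's r of log2 levels, and the points share their mice and the contrast between fractions, so r is a description. C3ar1 encodes the receptor of complement fragment C3a, and Siglec1 encodes sialoadhesin of tissue macrophages. Sdc3, a cell-surface proteoglycan, stood at 278, 257 and 125, then 2602, 511 and 452, in WT, and at 84, 140 and 149, then 2174, 489 and 455, in KO (low-fat, then high-fat). Sdc3 thus repeated the high replicate 1 libraries seen for Clec4f. Of the 50 genes most like the members, 8 were in the list of other Kupffer and tissue macrophage genes, 1 in the endothelial list and none in the stellate list.

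The next comparison asked whether loss of Ptprk altered the markers. In low-fat hepatocytes all 10 members had lower values in KO than in WT, from -0.20 (Csf1r) to -0.92 (Clec4f) on the log2 scale, with standard errors of 0.41 to 0.80. None passed the limma test (adjusted p = 0.9999 for each) and none had an unadjusted p under 0.05, against 1.64% of all genes tested. Ptprk was the only gene called in either direction, which is 0.00604% of all genes tested. The KO libraries all lay below the WT libraries for Vsig4, Timd4 and C1qa, against 2.79% of all genes tested, and overlapped for the other 7. The median of the members was -0.77, against 0.0011 over all genes tested. In the same comparison all 10 endothelial markers also had negative values, with a median of -0.66, and 9 of 10 stellate markers did, with a median of -0.51. None of these 20 passed, and their part in the members' values was not tested.

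In high-fat hepatocytes the values lay closer to 0: the log2 fold changes ran from -0.27 (Timd4) to 0.17 (Marco), with 8 negative and 2 positive (Adgre1 and Marco). None passed the limma test (adjusted p = 0.9999 for each) or had an unadjusted p under 0.05, against 1.97% of all genes tested. KO and WT libraries overlapped for all 10. Of all genes tested, 2.28% lay wholly higher in KO, and the share lying wholly lower is not reported here. Without the mice of replicate 1, Vsig4, C1qb and Csf1r had positive values.

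**Figure D4:**
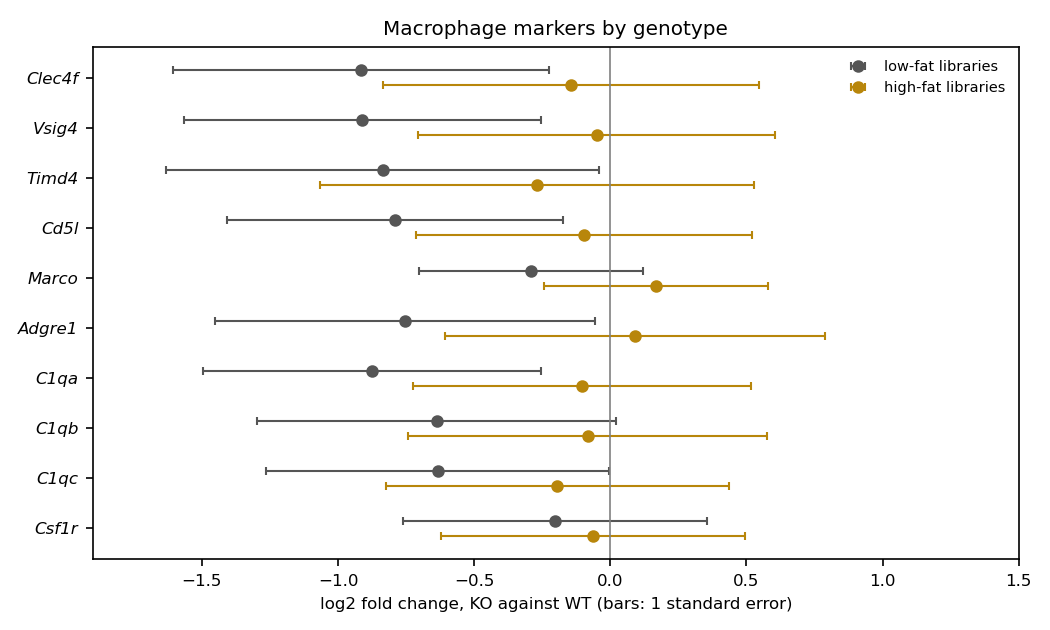
Points give the log2 fold change of KO against WT for each member in low-fat (grey) and high-fat (gold) libraries, and bars give 1 standard error. Low-fat values lie between -0.92 and -0.20 and high-fat values between -0.27 and 0.17, and no member passed the test in either fraction.

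The interaction tested whether the difference between fractions depended on genotype. It was positive for all 10 members, from 0.14 (Csf1r) to 0.86 (Vsig4) on the log2 scale, with a median of 0.63 against 0.015 over all genes tested. None passed the limma test or had an unadjusted p under 0.05, against 0.145% of all genes tested. Without the whole mouse of KO replicate 1 the value was negative for 8 of the 10 members, the exceptions being Vsig4 and Marco. A difference between genotypes in the rise of these markers was not detectable with 3 mice a group.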

How the data were processed

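The members and gene lists were chosen with earlier results of these data known, so no pattern among them is independent support. The deposited values are a score: the authors scaled each library's gene read counts to 20 M (mega) and rounded up, as read from the values themselves. Per the submitters' processing notes the build is mm9; aligner and counter are not given in the sources used here. Coordinates, exon lengths and overlaps come from GENCODE M21 (GRCm38), which may differ from the authors' annotation.

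The test covered the 16563 genes that reached a value of 10 in 3 or more libraries; all 10 members passed, 9 of them also on low-fat libraries alone. Libraries were scaled to each other by trimmed means of M values (TMM), and values transformed as log2(value + 2), a scale that understates changes of low genes. limma 3.58.1 (R 4.3.3, with trend) fitted 1 mean per group over 12 libraries. P-values were two-sided and adjusted by the Benjamini-Hochberg method over all genes tested, with calls under 0.05. The 6 comparisons were high-fat against low-fat over both genotypes and in each, KO against WT in each fraction, and their interaction. The fit was tested on simulated data.

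Pairing of the fractions comes from the mouse name in the labels, shared by the libraries with 1 replicate number in a genotype; deviations from the group means correlated across genes at a mean r of 0.516 (WT) and 0.162 (KO) within mice. A second fit had a term for each mouse. Depth was estimated from the pattern of low values (largest error on 8 simulated libraries 0.0333%); 3 reads correspond to 2.398 to 3.978. The value of 3 reads concerns counting only, while standard errors and SDs come from the spread between libraries. Replicates are different mice. Alternatives were the block, other scalings, pseudocounts, no filter and leaving out libraries or mice; leaving out both mice of replicate 1 was chosen after seeing the data. Genes named besides the members and Ptprk are called genes of the lists and the 10 most like the members. In the monocyte-derived list, genes that made up much of its sum or were below the filter are also named. The value of 1 listed transcription factor is not reported here.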

Additional observations from a re-analysis of the deposited data

How the results depend on the processing

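Between fractions, none of 649 values of members under the alternatives changed sign. Over both genotypes Csf1r fell short of the threshold under 11 of 27 alternatives (highest limma adjusted p 0.142). Of 689 member values for KO against WT and the interaction, 79 changed sign and none was called; the cause was not tested. The limits are 3 mice a group, replicate 1 libraries that stand apart, and Marco and Timd4 levels of few reads in low-fat libraries. Marco, and Timd4 without both mice of replicate 1, reached the filter only through high-fat libraries. Their calls in the counts below are no support. A fit of only the libraries compared does not apply to both genotypes together or to the interaction, which use all libraries. With only the libraries compared, Marco was below the filter for WT fractions and for KO against WT in low-fat libraries.

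With the replicate block (a term for each mouse, or replicate number for KO against WT), the members called in KO went from 1 to 2, and all genes called from 954 to 1731 over both genotypes. In WT the genes called went from 0 to 169, and for KO mice from 148 to 353. The block changed no other call of a member than those given in the report. With a correlation within mice in place of the block, 8 members were called in KO and 2 in WT, and 1913, 383 and 528 genes over both genotypes, in WT and in KO. No member was called in KO with the deposited scaling alone, a pseudocount of 10, no filter or only the libraries compared. A pseudocount of 10 gave 1 gene called in WT. Only the libraries compared gave 0 genes in KO and 0 for KO against WT in high-fat libraries. Without both mice of replicate 1, 375 genes were called over both genotypes, 22 in KO and 0 for KO against WT in each fraction; with the block as well, 7 members and 490 genes were called in WT, and 9 members and 516 genes in KO.

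Leaving out 1 library or mouse gave 4 to 10 members called over both genotypes, and 0 to 0 in KO and in WT. All genes called ranged from 351 to 1125 over both genotypes, 0 to 75 in KO, 0 to 1 in WT, 1 to 3 for KO against WT in low-fat and 0 to 2 in high-fat libraries. For KO against WT in high-fat libraries the log2 fold changes of members ranged from -0.85 to 0.66 for Clec4f, -0.70 to 0.79 for Vsig4, -1.19 to 0.61 for Timd4, -0.76 to 0.62 for Cd5l, -0.28 to 0.41 for Marco, -0.58 to 0.95 for Adgre1, -0.75 to 0.62 for C1qa, -0.74 to 0.72 for C1qb, -0.83 to 0.54 for C1qc and -0.63 to 0.61 for Csf1r. Without both mice of replicate 1 they were 0.12 for Vsig4, 0.0397 for C1qb and 0.02 for Csf1r. For the interaction the values ranged from -0.27 to 1.58 for Clec4f, -0.35 to 1.45 for Timd4, -0.13 to 1.43 for Cd5l, -0.0777 to 0.83 for Marco, -0.0638 to 1.70 for Adgre1, -0.0347 to 1.51 for C1qa, -0.27 to 1.36 for C1qb, -0.29 to 1.18 for C1qc and -0.50 to 0.81 for Csf1r.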
